A study of Mus musculus with 6 samples.

Results

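The 9 genes described here encode the pore-forming subunits of the mouse AMPA receptors (Gria1, Gria2, Gria3 and Gria4, for GluA1 to GluA4) and kainate receptors (Grik1, Grik2, Grik3, Grik4 and Grik5, for GluK1 to GluK5). They were taken by symbol from the gene rows of the matrices, where each symbol occurs once, and are 9 of 32285 genes. The nuclei come from 3 libraries of C57BL/6J retina, each holding RNA counts and open-chromatin (ATAC) counts for every nucleus. The WIF1 2 weeks and WIF1 4 weeks libraries are from eyes given an AAV2/2 vector, and the Control library is from naïve eyes. WIF1, a secreted protein, inhibits Wnt signalling. Wif1 was driven by the CMV promoter, in a vector that either did or did not also carry GFP, and the design does not say which of them these eyes received. It gives 2 eyes per group without saying whether they were pooled, and the labels attach the abbreviation AVI, which they do not expand, to the 2 times. A GFP control vector is named, but the Control library was not made from it, so injection, vector and WIF1 cannot be told apart. Each group has 1 library, so no difference below has a replicate check, and every interval in parentheses is a 95% interval for counting error alone.

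AMPA and kainate receptors are glutamate-gated cation channels built from 4 subunits, and each family assembles among its own members. In the retina, photoreceptors release glutamate in the dark. OFF cone bipolar cells receive it through AMPA and kainate receptors, whereas ON cone bipolar and rod bipolar cells use the metabotropic receptor mGluR6 at that synapse. Amacrine cells receive glutamate from bipolar cells through ionotropic receptors. GluA2, once its RNA has been edited, makes AMPA receptors poorly permeable to calcium. GluK1, GluK2 and GluK3 can form channels by themselves, whereas GluK4 and GluK5 need one of them as a partner.

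In RefSeq (GRCm38.p6) the AMPA genes lie on 4 chromosomes, with Gria1 (ENSMUSG00000020524) at chr11:57011571-57330244, Gria2 (ENSMUSG00000033981) at chr3:80681450-80804227, Gria3 (ENSMUSG00000001986) at chrX:41400819-41678601 and Gria4 (ENSMUSG00000025892) at chr9:4417893-4796234. Among the kainate genes, those for the subunits that form channels by themselves are Grik1 (ENSMUSG00000022935) at chr16:87895901-88290863, Grik2 (ENSMUSG00000056073) at chr10:49093680-49790161 and Grik3 (ENSMUSG00000001985) at chr4:125490259-125714173. Those for the partner subunits are Grik4 (ENSMUSG00000032017) at chr9:42518182-42945000 and Grik5 (ENSMUSG00000003378) at chr7:25009849-25075694.

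In the WIF1 2 weeks, WIF1 4 weeks and Control libraries, 8829, 8840 and 7157 nuclei were kept, with a median of 788, 1180 and 1611 RNA molecules (unique molecular identifiers, UMIs) each. The 9 genes held 20033, 23378 and 37599 of their UMIs. Clusters were named from marker genes that leave out all 9 subunits, and each class name below means "like" by those markers. Retinal classes were found by their markers, with rod nuclei making 67.6%, 67.8% and 57.6% of the kept nuclei. WIF1 2 weeks had the lowest depth. Wif1 itself had 11 UMIs in WIF1 2 weeks, 36 in WIF1 4 weeks and 1 in Control. Called barcodes shared between libraries numbered 173 for WIF1 2 weeks and Control, 142 for WIF1 4 weeks and Control, and 207 for the WIF1 pair.

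The start regions of Gria2, Grik2 and Grik3 are printed because the first pair lay under a called peak in every library, whereas that of Grik3 lacked one in Control. They cover 250 bases before to 50 after a RefSeq gene start (GRCm38.p6, the mm10 build), and 6 of the 9 genes had one. That of Gria2 is chr3:80802786-80803085 on the minus strand, that of Grik2 is chr10:49788705-49789004 on the minus strand, and that of Grik3 is chr4:125490446-125490745 on the plus strand. Each runs 5′ to 3′ in the direction of the gene, and capitals mark GGGCGG, the core of an Sp1 site, on either strand.
Gria2: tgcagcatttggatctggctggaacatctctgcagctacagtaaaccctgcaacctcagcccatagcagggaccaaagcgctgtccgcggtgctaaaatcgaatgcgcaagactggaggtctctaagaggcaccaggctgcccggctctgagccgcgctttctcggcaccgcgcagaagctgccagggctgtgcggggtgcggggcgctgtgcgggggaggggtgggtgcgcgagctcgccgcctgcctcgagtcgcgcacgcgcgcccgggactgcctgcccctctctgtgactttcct
Grik2: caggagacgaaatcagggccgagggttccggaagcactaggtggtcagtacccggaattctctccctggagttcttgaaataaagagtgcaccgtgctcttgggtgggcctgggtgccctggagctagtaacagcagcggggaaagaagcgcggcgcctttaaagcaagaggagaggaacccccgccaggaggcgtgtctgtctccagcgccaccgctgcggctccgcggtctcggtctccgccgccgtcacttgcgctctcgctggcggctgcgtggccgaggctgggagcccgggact
Grik3: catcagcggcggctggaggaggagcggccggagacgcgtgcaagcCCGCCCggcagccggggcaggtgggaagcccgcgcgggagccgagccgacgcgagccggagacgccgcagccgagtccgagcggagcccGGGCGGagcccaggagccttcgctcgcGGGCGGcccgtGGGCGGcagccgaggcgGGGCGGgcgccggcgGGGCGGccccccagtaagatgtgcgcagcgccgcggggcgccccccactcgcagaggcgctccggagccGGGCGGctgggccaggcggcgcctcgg
The Grik3 region held 7 matches to GGGCGG, and those of Gria2 and Grik2 held 0. Of all 32851 start regions of this length, 35.7% hold that motif. The letters TATAAA, read on both strands, were in none of these 3 windows, and 13.6% of all start regions hold them. The same held for TAATCC, in 7.06% of all start regions, and for TAATTA, in 5.29%. The GC content was 65.7% for Gria2, 64.7% for Grik2 and 82.0% for Grik3, above the median of 52.7% over all start regions. CG dinucleotides numbered 26, 26 and 50, against a median of 7. A called peak covered 300 of the 300 bases of the Gria2 and Grik2 regions in all 3 libraries. It covered 300 bases of the Grik3 region in WIF1 2 weeks, 271 in WIF1 4 weeks and 0 in Control. No start region was printed for Gria1, Gria3 or Grik1.

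Levels are UMIs summed over the nuclei of a class and given as a share of the UMIs of that class on the usual CPM scale (counts per 1e6). CPM serves to compare a gene between classes. Which of several genes leads in a class was read only from CPM per kb of gene span in RefSeq, since nuclear RNA contains introns and the spans ran between 65.8 kb for Grik5 and 696 kb for Grik2. Whether intronic reads entered the counts is not given in the sources used here.

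**Figure D1:**
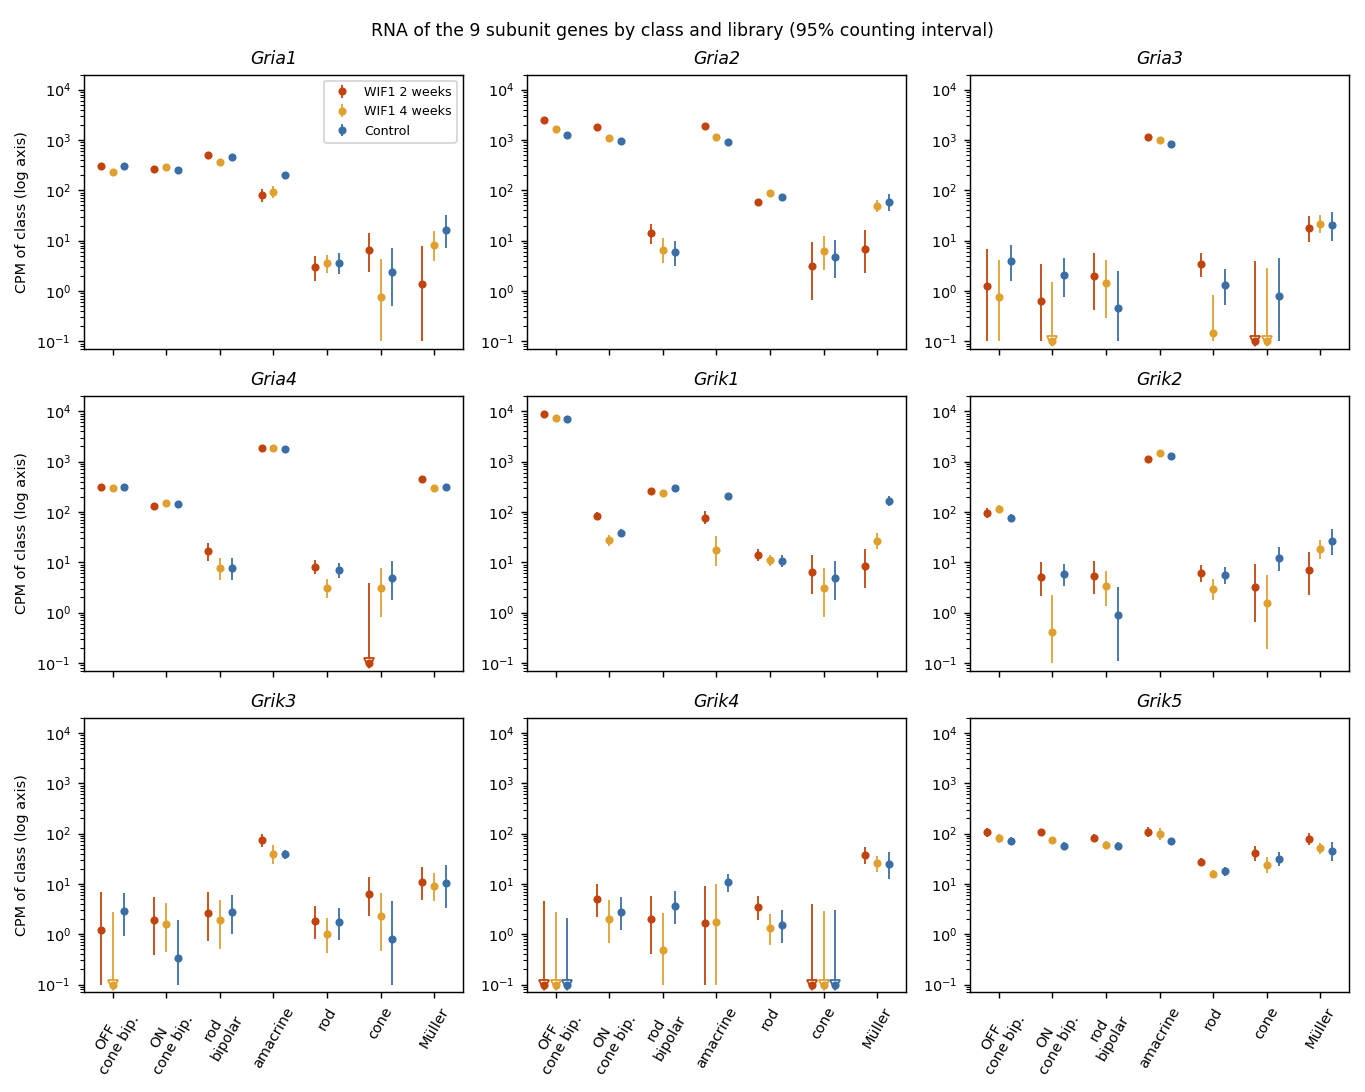
CPM of each subunit gene (log axis) in 7 classes, with WIF1 2 weeks, WIF1 4 weeks and Control side by side; points are class sums of 1 library, bars the 95% counting interval, and open triangles a level of 0. Grik1 stood at 6984 CPM or more in OFF cone bipolar nuclei of all 3 libraries, Gria3 and Grik2 peaked in amacrine nuclei, and Grik5 lay between 15.9 and 108 CPM in every class.

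Grik1, which encodes GluK1, was the leading kainate subunit of OFF cone bipolar nuclei. Its level there was 8758 CPM (8556 to 8964) in WIF1 2 weeks, 7396 CPM (7250 to 7544) in WIF1 4 weeks and 6984 CPM (6860 to 7109) in Control. In ON cone bipolar nuclei it was 83.0 CPM, 27.5 CPM and 38.6 CPM in the same order. The OFF and ON levels did not overlap in any library. Grik1 carried 92.7%, 93.1% and 93.6% of the kainate family's CPM per kb in OFF cone bipolar nuclei of WIF1 2 weeks, WIF1 4 weeks and Control.

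The OFF over ON ratio of Grik1 CPM was 105 (88.8 to 126) in WIF1 2 weeks, 269 (212 to 347) in WIF1 4 weeks and 181 (150 to 220) in Control. The ON side of these ratios rests on few nuclei, as 5 nuclei held 66.7%, 47.1% and 54.5% of its Grik1 UMIs. In the ON cluster named here for Igfn1, 4 nuclei of WIF1 2 weeks held all 74 Grik1 UMIs, at 210 CPM. Among the 6 subunits with at least 30 UMIs in the higher class, 3 were more than 2-fold apart in each library, all of them higher in OFF nuclei. These were Grik1, Grik2 and Gria4. Of all genes, 10.1% passed the same fold in WIF1 2 weeks, 9.76% in WIF1 4 weeks and 9.84% in Control. The median log2 ratio over the 6 subunits was 0.88 in WIF1 2 weeks, 0.80 in WIF1 4 weeks and 0.78 in Control, beside -0.05, -0.06 and -0.04 over all genes compared.

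Grik2, which encodes GluK2, was the other kainate subunit past 2-fold in OFF nuclei, where it made 0.568%, 0.833% and 0.577% of the family's CPM per kb. It had 94.7 CPM, 117 CPM and 76.0 CPM in OFF cone bipolar nuclei of WIF1 2 weeks, WIF1 4 weeks and Control, against 5.03 CPM, 0.404 CPM and 5.85 CPM in ON cone bipolar nuclei. The OFF over ON ratio was 18.8 in WIF1 2 weeks and 13 in Control. In WIF1 4 weeks it was 289 (51.0 to 11468), with 1 UMI read in ON nuclei. With ON nuclei set to 3 counts it was 96.2, and between 87.7 and 103 under the other settings tried. Gria4 was 2.41, 2.01 and 2.19 times higher in OFF nuclei of the 3 libraries. Gria2 was 1.40, 1.52 and 1.36 times higher there, short of 2-fold. Gria1 (ratios of 1.16, 0.813 and 1.21) and Grik5 (1.0, 1.07 and 1.25) had similar CPM on both sides.

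**Figure D2:**
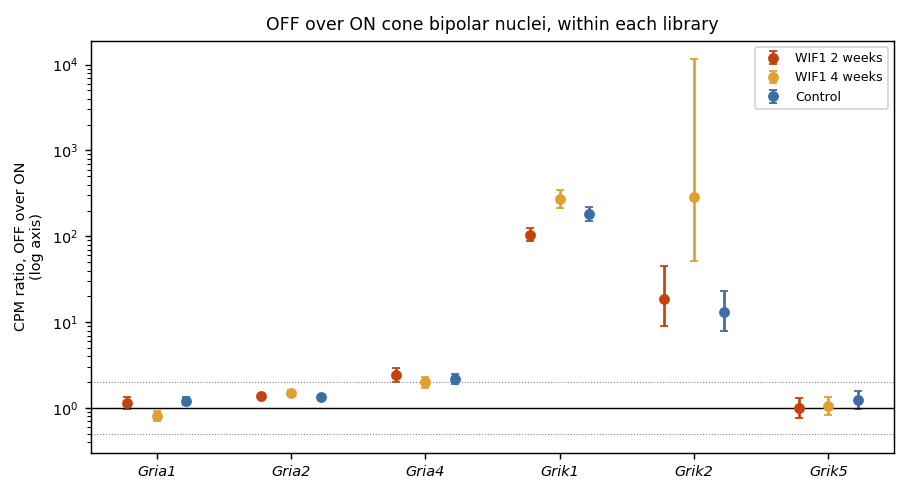
Ratio of CPM, OFF over ON cone bipolar nuclei (log axis), for the 6 subunits with at least 30 UMIs in the higher class, in each library, with 95% counting intervals; the solid line marks no difference and dotted lines 2-fold. Grik1 lies between 105 and 269, while Gria1, Gria2 and Grik5 lie between 0.813 and 1.52.

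The OFF class held 3 clusters, named here for Nxph1, Erbb4 and Otor, each a leading gene of its cluster, with 91, 93 and 189 nuclei in WIF1 2 weeks, 105, 96 and 163 in WIF1 4 weeks, and 138, 95 and 196 in Control. None of the 9 subunits was used to make the clusters, and the levels of Grik1 followed the same order of clusters in all 3 libraries. Grik1 had 12170, 10323 and 10464 CPM in the Otor cluster (WIF1 2 weeks, WIF1 4 weeks, Control). The Erbb4 cluster had 8227, 8488 and 7273 CPM of Grik1. The Nxph1 cluster had 2664, 2833 and 2095 CPM. No neighbours in this order overlapped over the 3 libraries.

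Gria2 had the opposite order, with 4368, 3036 and 2000 CPM in the Nxph1 cluster of WIF1 2 weeks, WIF1 4 weeks and Control. It had 2466, 1280 and 1151 CPM in the Erbb4 cluster, and 1591, 818 and 820 CPM in the Otor cluster. Within each library the order was Nxph1, Erbb4, Otor, while over the 3 libraries the ranges of neighbouring clusters overlapped. The Nxph1 over Otor ratio was 2.75 (2.47 to 3.05), 3.71 (3.32 to 4.15) and 2.44 (2.21 to 2.69) for Gria2, against 0.219, 0.274 and 0.200 for Grik1. Of the 5, 6 and 5 subunits compared, 1, 4 and 3 were 2-fold higher and 2, 2 and 2 lower in the Nxph1 cluster. As background, 19.5% of genes in WIF1 2 weeks, 19.5% in WIF1 4 weeks and 14.7% in Control were 2-fold apart between the Nxph1 and Otor clusters.

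Gria1, by contrast, was nearly missing from the Erbb4 cluster. It had 17.6, 26.7 and 18.1 CPM there in WIF1 2 weeks, WIF1 4 weeks and Control, against 528, 503 and 522 CPM in the Otor cluster. The Erbb4 over Otor ratio was 0.0334 (0.00902 to 0.0869), 0.0530 (0.0251 to 0.0990) and 0.0346 (0.0138 to 0.0720). Grik2 had 256, 317 and 256 CPM in the Erbb4 cluster and 7.72, 7.60 and 8.94 CPM in the Otor cluster, so the clusters high in Gria1 and in Grik2 were different ones in all 3 libraries. Gria4 was highest in the Nxph1 cluster, at 576, 559 and 567 CPM. Its Nxph1 over Erbb4 ratio was 4.67 (3.06 to 7.33), 4.88 (3.51 to 6.91) and 4.14 (3.09 to 5.65).

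Inside the Nxph1 cluster, a finer clustering (resolution 2) separated a pair of groups with different Gria1 levels. The larger, of 65, 98 and 84 nuclei in WIF1 2 weeks, WIF1 4 weeks and Control, had 59.2, 71.3 and 65.0 CPM of Gria1 and 3255, 2944 and 2606 CPM of Grik1. The smaller, of 26, 7 and 54 nuclei, had 744, 287 and 449 CPM of Gria1 and 700, 670 and 1092 CPM of Grik1. In each library the larger group had more Grik1 and less Gria1 than the smaller. Gria2 was at 5194, 3131 and 2596 CPM in the larger group and 1619, 1196 and 832 CPM in the smaller. The smaller group thus had less Gria2 than the Erbb4 cluster in WIF1 2 weeks and Control, so the opposite order of Gria2 and Grik1 did not hold for it there. In WIF1 4 weeks its 1196 CPM rested on 25 UMIs in 7 nuclei, too few to order it against the nearby Erbb4 level. Gria1 in the Nxph1 cluster as a whole was 217, 81.9 and 195 CPM. Its WIF1 4 weeks over Control ratio was 0.421 (0.279 to 0.619), with 7 nuclei of the smaller group, against 54 in Control. The part of this make-up in the ratio was not tested.

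Nuclei were also thinned to 1000 UMIs each, which left out 9, 4 and 2 Nxph1 nuclei as too shallow. Of the rest, 80.5%, 90.1% and 69.9% of Nxph1 nuclei of WIF1 2 weeks, WIF1 4 weeks and Control had a Grik1 UMI. Unthinned, the shares were 89.0%, 98.1% and 88.4%. Rods, which have little Grik1, had 0.936%, 0.611% and 0.871% thinned and 0.955%, 0.984% and 1.28% unthinned, with 5437, 2884 and 1255 rods left out. Median depths were 2102, 3368 and 3869 UMIs in OFF cone bipolar nuclei and 691, 1011 and 1146 in rods. ON cone bipolar nuclei, of which 41, 11 and 3 were left out, had thinned shares of 3.13%, 1.95% and 2.53% and unthinned ones of 5.88%, 4.93% and 6.44%. Rod bipolar nuclei, of which 4, 6 and 1 were left out, had thinned shares of 18.3%, 18.2% and 20.4% and unthinned ones of 33.3%, 35.1% and 42.6%, between those of ON cone bipolar nuclei and the OFF clusters.

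**Figure D3:**
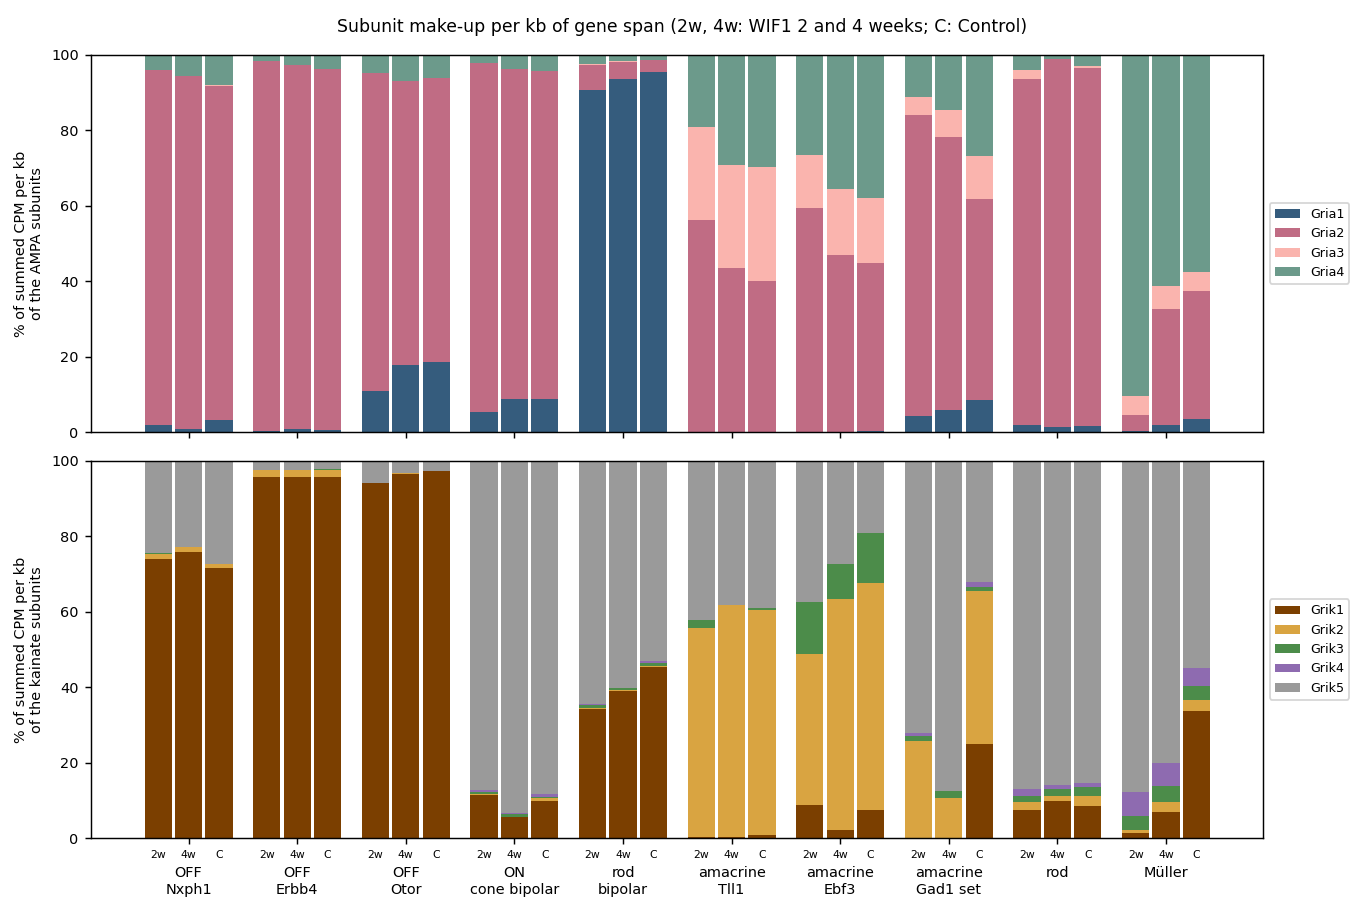
Share of each subunit in the summed CPM per kb of its family (percent), AMPA above and kainate below, for the OFF clusters, the ON cone bipolar class, rod bipolar nuclei, 3 amacrine groups, rods and Müller nuclei; each trio of bars is WIF1 2 weeks (2w), WIF1 4 weeks (4w) and Control (C). Grik1 fills most of the kainate bar in the OFF clusters, Gria1 most of the AMPA bar in rod bipolar nuclei, and amacrine groups mix Gria2, Gria3 and Gria4.

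The bipolar classes differed in AMPA subunits too. Gria2 carried 91.9%, 89.8% and 85.4% of AMPA CPM per kb in OFF cone bipolar nuclei and 92.5%, 87.3% and 86.8% in ON cone bipolar nuclei. In rod bipolar nuclei, the bipolar type driven by rods, Gria1 took its place with 90.7%, 93.6% and 95.4%. Gria2 was at 13.9, 6.65 and 5.86 CPM in rod bipolar nuclei of WIF1 2 weeks, WIF1 4 weeks and Control, against 1799, 1093 and 948 CPM in ON cone bipolar nuclei. The rod bipolar over ON ratio was 0.00774, 0.00608 and 0.00619, and 18.5%, 18.2% and 18.7% of genes were 2-fold apart. Of the 5 subunits compared in each library, 1 was higher and 2 were lower in rod bipolar nuclei. Cones had 3.19, 6.13 and 4.84 CPM of Gria2, near the rod bipolar level in WIF1 4 weeks and Control but below it in WIF1 2 weeks.

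Gria1 reached 508 CPM (473 to 546), 367 CPM (341 to 394) and 463 CPM (435 to 492) in rod bipolar nuclei, against 267, 287 and 250 CPM in ON cone bipolar nuclei. Gria4 was low in rod bipolar nuclei, with rod bipolar over ON ratios of 0.127, 0.0505 and 0.0535. Grik1 was higher there than in ON cone bipolar nuclei, by 3.12, 8.53 and 7.62 times, at 259, 234 and 294 CPM. Its share of kainate CPM per kb was 34.2%, 39.0% and 45.5%, with Grik5 at 64.5%, 60.1% and 53.2%. In ON cone bipolar nuclei Grik5, which needs a partner subunit to form a channel, made 87.1%, 93.3% and 88.4%.

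ON clusters were not uniform either. The cluster named for Chrm2 had 553, 535 and 546 CPM of Gria1 and 836, 528 and 416 CPM of Gria2. The Cpne9 cluster had 37.4, 66.9 and 31.4 CPM of Gria1 and 2131, 1471 and 1171 CPM of Gria2. The Gria1 levels of these clusters did not overlap over the 3 libraries, but the share of all genes that separate them was not computed. They are examples and do not stand for the other ON clusters. Gria4 was highest in the Slitrk5 cluster, at 592, 652 and 530 CPM, a range that overlaps that of the Nxph1 OFF cluster. Chrm2 is also on the OFF marker list, and that cluster was called ON by its other markers.

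Amacrine nuclei had the widest set of subunits. Gria4 was at 1864, 1825 and 1778 CPM in WIF1 2 weeks, WIF1 4 weeks and Control, the highest of the 7 classes and nearly the same in all 3 libraries. Gria3 was at 1152, 980 and 831 CPM, and in bipolar nuclei at 4.00 CPM or less. Grik2 was at 1132, 1477 and 1273 CPM, above its OFF cone bipolar level in each library. Per kb, Gria2 led the AMPA family with 62.7%, 51.9% and 46.9%, ahead of Gria4 and then of Gria3 with 16.6%, 19.6% and 19.1%. Grik2 and Grik5 shared most of the kainate CPM per kb, with Grik2 at 42.8%, 55.5% and 50.4%.

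Within the amacrine class, the cluster named for Tll1 was richest in Gria3, at 1726, 1345 and 1456 CPM, and had 0, 3.48 and 6.43 CPM of Gria1. The Ebf3 cluster was richest in Grik2, at 1676, 2634 and 2307 CPM. It was also where Grik3 was highest, at 184, 130 and 164 CPM, against 11.1 CPM or less in the other 6 classes. The remaining amacrine sub-clusters, joined here as the Gad1 set, held Gria1 at 415, 445 and 407 CPM and little Grik3, at 8.47, 8.55 and 9.43 CPM. Gad1 was a leading gene of only some of these sub-clusters, so the set is a mixed remainder and its name does not mark a cell type. The group with the highest level was the same in all 3 libraries for Gria1, Gria3, Grik2 and Grik3.

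Rods and cones had few subunits. Gria2 was at 58.4, 90.2 and 75.0 CPM in rods and 3.19, 6.13 and 4.84 CPM in cones, a rod over cone ratio of 18.3 (6.19 to 89.3), 14.7 (7.42 to 34.2) and 15.5 (7.06 to 42.5). Of the 4, 3 and 4 subunits compared, 3, 2 and 2 were 2-fold higher in rods and 0 lower. Between rods and cones 22.2%, 22.3% and 21.6% of genes were 2-fold apart. The Gria2 UMIs were spread over rods, since the 5 nuclei with the most held 5.84%, 4.91% and 4.57% of them. Grik5 was at 26.8, 15.9 and 17.7 CPM in rods and 40.4, 23.7 and 31.5 CPM in cones. It made 92.6%, 94.7% and 93.5% of the kainate CPM per kb of cones.

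Müller nuclei, the radial glia of the retina, had Gria4 at 447 CPM (400 to 499), 303 CPM (272 to 336) and 312 CPM (265 to 366). It made 90.4%, 61.4% and 57.6% of their AMPA CPM per kb. Grik4 was highest in this class, at 37.4, 25.8 and 24.5 CPM, and was listed at 0 in OFF cone bipolar nuclei and cones of every library. Grik5 was at 78.9, 51.6 and 44.9 CPM. Grik1 was at 8.31, 26.6 and 165 CPM, but 4 nuclei (2.99% of the class) held all 81 UMIs of Control. The share of UMIs from rod marker genes, which are foreign to Müller nuclei, was 0.168%, 0.697% and 0.819% in this class, and its part in the Gria2 and Grik1 levels was not tested.

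Horizontal nuclei could be described in Control alone, where 25 were kept, against 1 and 2 in WIF1 2 weeks and WIF1 4 weeks. They had 619 CPM of Gria2, 578 CPM of Gria3, 1526 CPM of Gria4, 252 CPM of Grik1 and 557 CPM of Grik2, values not ranked here because the genes differ in span. Before doublets were removed, 44.0% of the 50 nuclei of this cluster were flagged as doublets. The cluster was also enriched for some amacrine, ganglion and bipolar markers, and the part of merged nuclei in these levels was not tested. The 8 ganglion nuclei, all of Control, had 511 CPM of Gria2, 338 CPM of Gria3 and 453 CPM of Gria4. Endothelial, pericyte and microglia nuclei held at most 19 UMIs of any of the 9 genes in a library.

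Placed in order of level, Grik1 was highest in OFF cone bipolar nuclei, then in rod bipolar nuclei, then in the other classes. Its amacrine and ON cone bipolar ranges over the 3 libraries overlapped, as did those of rods and Müller nuclei. For Gria2, the OFF cone bipolar, amacrine and ON cone bipolar ranges overlapped one another and lay above all other classes. Gria1 was highest in rod bipolar nuclei, and its OFF and ON cone bipolar ranges overlapped. Grik5 had overlapping ranges in OFF, ON, rod bipolar, amacrine and Müller nuclei.

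Over the 21 class sums of 7 classes and 3 libraries, the genes whose log2 CPM was most like that of a subunit were picked by Pearson correlation, as a description of sums that share libraries. Trpc7 was closest to Grik1 (r = 0.965), Kcnj9 to Gria1 (0.988), Lrp1b to Gria2 (0.947), Vegfc to Gria3 (0.995) and Kctd8 to Gria4 (0.993). Lrfn5 was closest to Grik2 (0.976), Evc to Grik3 (0.982) and Mapk8ip1 to Grik5 (0.955). Grik4 did not reach the 50 CPM needed for a comparison.

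The genes that assemble, anchor or edit these receptors differed in part between OFF and ON nuclei. Of 14 AMPA auxiliary subunits, 6, 7 and 8 had at least 30 UMIs in OFF or ON cone bipolar nuclei of WIF1 2 weeks, WIF1 4 weeks and Control. Higher in OFF nuclei by 2-fold were 2, 3 and 3 of them, and lower were 0, 0 and 1, where 10.1%, 9.76% and 9.84% of all genes were 2-fold apart. The median log2 ratio of the list was -0.02, 0.93 and 0.32, beside the medians over all genes given above. Cacng2 (stargazin, which carries AMPA receptors to the synapse) was 9.50, 7.45 and 8.81 times higher in OFF nuclei. Shisa6, which keeps AMPA receptors at the synapse, was 9.56, 13 and 14.1 times higher.

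Of the 2 kainate auxiliary subunits, Neto1 was read mostly in OFF nuclei. It had 458, 804 and 567 CPM in OFF cone bipolar nuclei, against 0, 2.02 and 0.688 CPM in ON cone bipolar nuclei. The ratio was at least 242 in WIF1 2 weeks, with ON set to 3 counts over the class, 398 (170 to 1228) in WIF1 4 weeks and 823 (227 to 6804) in Control. Its level was not shared by all OFF clusters. The Nxph1 cluster, which was lowest in Grik1, had 1876, 2498 and 1704 CPM of Neto1, and the Otor cluster, highest in Grik1, had 2.57, 0 and 1.28 CPM.

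Shisa6 and Grip1, a scaffold that binds GluA2 and GluA3, were also concentrated in the Nxph1 cluster, where Gria2 was highest. Shisa6 had 212, 229 and 136 CPM there, against 2.57, 0 and 5.11 CPM in the Otor cluster. Grip1 had 920, 957 and 734 CPM there, against 2.57, 1.90 and 12.8 CPM. Cacng2 had its highest level in the Otor cluster, at 149, 150 and 135 CPM, against 50.6, 9.36 and 53.4 CPM in the Nxph1 cluster. Unlike the 9 subunits, these partner genes could take part in the clustering, so their differences between clusters are a description.

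Of the 21 trafficking and scaffold genes, 17, 18 and 18 had enough UMIs in OFF or ON nuclei. Higher in OFF nuclei were 3, 4 and 3, and lower were 2, 2 and 2, against the same 10.1%, 9.76% and 9.84% of all genes, with a median log2 ratio of 0.05, 0.14 and 0.01. Nptx2, a pentraxin that clusters AMPA receptors, was 4.02, 3.29 and 4.15 times higher in OFF nuclei. C1ql3, a secreted synaptic organizer, was lower, with OFF over ON ratios of 0.0838, 0.0739 and 0.199. Lrrtm4, a postsynaptic adhesion protein, was higher in rod bipolar nuclei, with rod bipolar over ON ratios of 88.3, 56.1 and 53.7.

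Among the 3 RNA editing enzymes, Adarb2, which is thought to lack editing activity, had 4.92, 5.27 and 24.0 CPM in OFF cone bipolar nuclei and 985, 1055 and 804 CPM in ON cone bipolar nuclei. The other two were within 2-fold. Adarb1, the enzyme that edits the Gria2 RNA, had 85.9, 98.2 and 112 CPM in the Nxph1 cluster and 59.2, 91.1 and 90.6 CPM in the Otor cluster. Of 9 NMDA and delta receptor subunits, 5 had enough UMIs in each library, with 1 higher and 1 lower in OFF nuclei (10.1%, 9.76% and 9.84% of all genes passed) and a median log2 ratio of -0.45, -0.42 and -0.40. Grin2b was higher by 15.4, 33.1 and 52.8 times, and Grin3a was lower, with ratios of 0.0110, 0.0188 and 0.0320.

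Between libraries, 5 of the 30 pairs of a subunit and a class with at least 30 UMIs were 2-fold apart between WIF1 2 weeks and Control, 2 higher and 3 lower, against 6.82% of all gene and class pairs. In WIF1 4 weeks it was 4 of 32, all lower, against 2.64%. Between WIF1 4 weeks and WIF1 2 weeks it was 5 of 32, against 5.63%. At 1.5-fold the counts were 12 of 30 (22.5% of all pairs), 5 of 32 (11.9%) and 13 of 32 (21.0%) for these 3 comparisons. With at least 10 UMIs they were 13 of 43 (11.1%), 7 of 43 (5.65%) and 12 of 42 (10.9%). With doublets kept they were 7 of 37 (5.80%), 4 of 36 (2.32%) and 8 of 37 (5.04%), and at clustering resolution 2 they were 5 of 30 (6.49%), 4 of 30 (2.74%) and 2 of 28 (4.42%). Comparisons with Control share that library, so they are not independent of each other.

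By class, the WIF1 2 weeks over Control counts at 2-fold were 0 of 6 subunits in OFF cone bipolar nuclei (5.05% of all genes), 1 of 5 in ON cone bipolar nuclei (4.34%) and 0 of 3 in rod bipolar nuclei (5.30%). They were 3 of 8 in amacrine nuclei (10.3%), 0 of 4 in rods (4.80%), 0 of 1 in cones (6.46%) and 1 of 3 in Müller nuclei (14.2%). For WIF1 4 weeks over Control they were 0 of 6 in OFF cone bipolar nuclei (2.15%), 0 of 5 in ON cone bipolar nuclei (1.22%) and 0 of 3 in rod bipolar nuclei (1.34%). Amacrine nuclei had 2 of 8 (7.04%), rods 1 of 4 (0.957%), cones 0 of 1 (1.95%) and Müller nuclei 1 of 5 (3.89%), a call on Grik1 that was lost with doublets kept. For WIF1 4 weeks over WIF1 2 weeks the bipolar classes had 0 of 6 in OFF (4.19%), 1 of 5 in ON (3.53%) and 0 of 3 in rod bipolar nuclei (4.38%). Amacrine nuclei then had 1 of 8 (5.90%), rods 1 of 4 (4.62%), cones 0 of 1 (3.48%) and Müller nuclei 2 of 5 (14.2%). With so few subunits in a class, the amacrine class alone had more than 1 past 2-fold in both comparisons with Control.

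**Figure D4:**
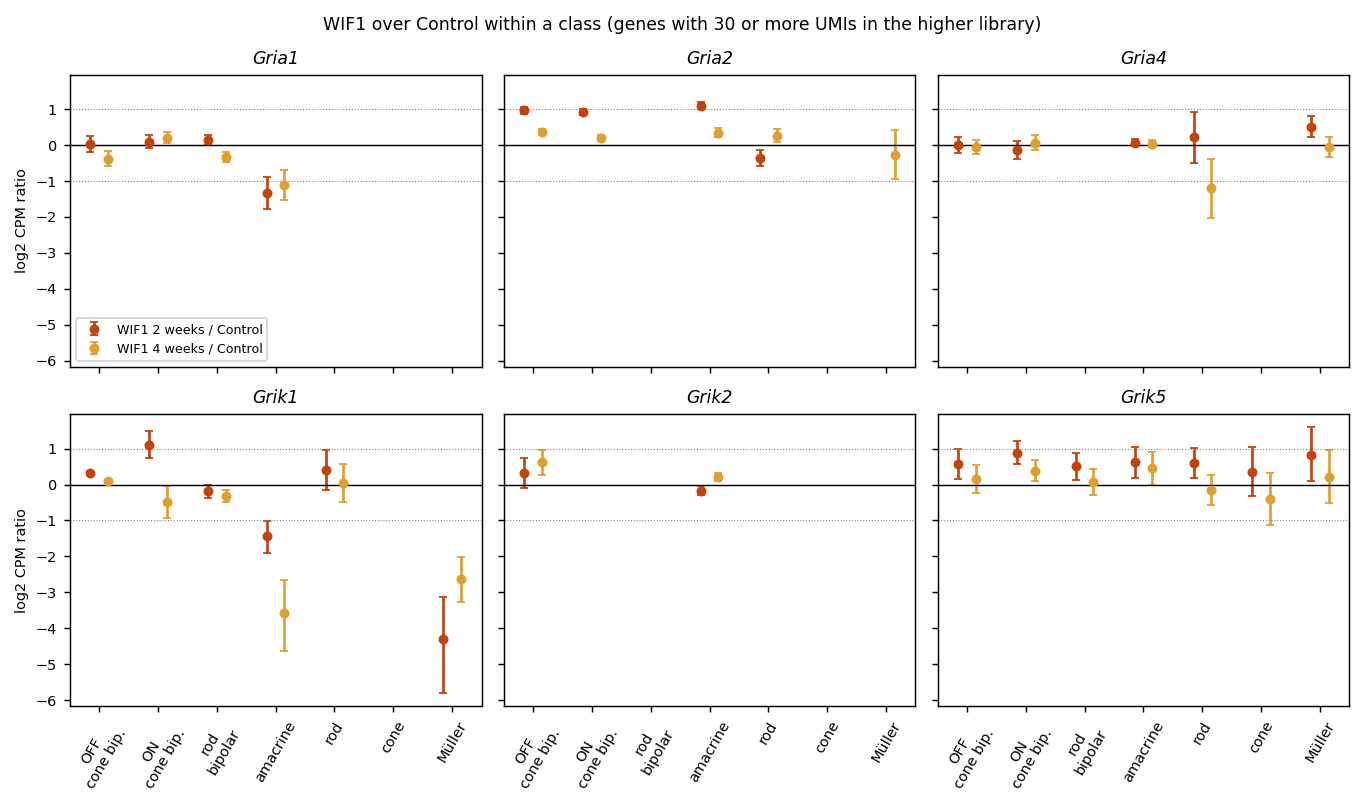
log2 ratio of CPM, WIF1 2 weeks over Control (left point) and WIF1 4 weeks over Control (right point), in 7 classes for 6 subunits with at least 30 UMIs in the higher library; bars are 95% counting intervals and dotted lines 2-fold. Gria2 lies near a log2 ratio of 1 in OFF, ON and amacrine nuclei of WIF1 2 weeks, at 0.97, 0.93 and 1.09, and below 0 in rods, at -0.36.

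Gria2 had its highest CPM in WIF1 2 weeks in 3 neuronal classes. In OFF cone bipolar nuclei it had 2510 CPM (2403 to 2622) in WIF1 2 weeks, 1662 CPM (1593 to 1733) in WIF1 4 weeks and 1284 CPM (1232 to 1339) in Control. In ON cone bipolar nuclei it had 1799, 1093 and 948 CPM. In amacrine nuclei it had 1927, 1146 and 903 CPM. Control was the lowest in all 3 classes.

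The WIF1 2 weeks over Control ratio of Gria2 was 1.95 (1.84 to 2.08) in OFF cone bipolar, 1.90 (1.80 to 2.00) in ON cone bipolar and 2.13 (1.99 to 2.29) in amacrine nuclei. Of these, the amacrine ratio alone was past 2-fold. Inside single clusters it was 2.18 in the Nxph1, 2.14 in the Erbb4, 1.94 in the Otor and 2.04 in the Tll1 cluster. In WIF1 4 weeks the ratio to Control was 1.29, 1.15 and 1.27 in the 3 classes. Rods had a WIF1 2 weeks over Control ratio below 1, at 0.778 (0.662 to 0.913).

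Set among all genes of at least 30 UMIs, the WIF1 2 weeks ratio of Gria2 was in the upper part of the range in OFF cone bipolar, ON cone bipolar and amacrine nuclei. Gria2 was the only subunit ranked, in classes that include those where its ratio is given above as high. Its rank is thus a description and not a test. A higher ratio was found for 147 of 8179 genes in OFF cone bipolar nuclei, 228 of 9650 in ON cone bipolar nuclei and 153 of 9766 in amacrine nuclei. In rods 8923 of 10526 genes had a higher ratio. In nuclei thinned to 1000 UMIs, 80.9%, 61.2% and 58.2% of ON cone bipolar nuclei of WIF1 2 weeks, WIF1 4 weeks and Control had a Gria2 UMI, and 91.5%, 90.0% and 90.9% unthinned, with the same 41, 11 and 3 nuclei left out of the thinned shares. Cones had 0.450%, 0.222% and 0.783% thinned and 0.634%, 1.32% and 1.54% unthinned, with 29, 5 and 7 cones left out, at median depths of 1954, 2780 and 3100 UMIs, against 2261, 3172 and 3828 in ON cone bipolar nuclei.

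Depth, mitochondrial share and rod RNA moved with the same libraries. Mitochondrial UMIs were 2.03%, 2.62% and 4.08% of the OFF cone bipolar sum in WIF1 2 weeks, WIF1 4 weeks and Control, and rod marker UMIs 0.224%, 0.261% and 0.610%. With mitochondrial and rod marker genes taken out of the totals, none of the 112 subunit values compared moved beyond its counting interval. These genes are a small part of each total, so taking them out could change a ratio only slightly. The part of mitochondrial share and rod RNA in the Gria2 ratio was not tested by this. The part of depth in the Gria2 ratio was not tested beyond the thinned shares.

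Among partners of the AMPA receptor, Cpt1c, which binds GluA1, was also higher in WIF1 2 weeks in some classes. Its WIF1 2 weeks over Control ratio was 2.67 (2.06 to 3.47) in OFF cone bipolar, 2.26 (1.89 to 2.70) in ON cone bipolar, 2.20 (1.70 to 2.81) in amacrine and 2.74 (1.81 to 4.27) in Müller nuclei. It was the 1 AMPA auxiliary subunit past 2-fold of the 7 with enough UMIs in OFF cone bipolar nuclei (5.05% of all genes), of 5 in ON cone bipolar nuclei (4.34%) and of 3 in Müller nuclei (14.2%). In rod bipolar (5.30%), rod (4.80%) and cone nuclei (6.46%), 0 of the 2 with enough UMIs were past 2-fold in WIF1 2 weeks. In amacrine nuclei 1 of 13 was higher and 3 were lower (10.3%), and in WIF1 4 weeks 0 were higher and 3 lower (7.04%). In WIF1 4 weeks the ratios of Cpt1c lay between 0.759 and 1.26. The lower ones in amacrine nuclei were Cnih3, Gsg1l and Shisa9. Shisa9 had 16.4, 10.6 and 102 CPM there, and Gsg1l had 1.64, 8.84 and 25.2 CPM. Cnih3 had 2, 0 and 34 UMIs. The Gad1 set made a smaller share of amacrine nuclei in the WIF1 libraries, as given below. The part of this make-up in the lower values of these genes was not tested.

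Grik1 in OFF cone bipolar nuclei kept within 1.5-fold of Control in both WIF1 libraries, as the CPM above show. Gria4 did the same in OFF, ON and amacrine nuclei, with WIF1 2 weeks over Control ratios of 1.01, 0.914 and 1.05. Grik5 was 1.48 (1.11 to 1.97), 1.85 (1.48 to 2.31) and 1.42 (1.10 to 1.84) times Control in OFF cone, ON cone and rod bipolar nuclei of WIF1 2 weeks, all short of 2-fold. Its ratios in WIF1 4 weeks lay between 1.05 and 1.31. In the Otor cluster, Grik5 was at 126 CPM in WIF1 2 weeks and 47.2 CPM in Control, a ratio of 2.67 (1.71 to 4.21). In the larger group of the Nxph1 cluster it was at 145 and 159 CPM in these libraries. In the smaller group it was at 153 and 81.6 CPM, on 7 and 16 UMIs. For library comparisons within single clusters, the share of all genes past 2-fold was not computed.

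Amacrine nuclei held 2 subunits that were 2-fold lower in both WIF1 libraries, Gria1 and Grik1. Gria1 was at 80.4, 93.7 and 201 CPM there, which makes 0.399 (0.292 to 0.537) of Control for WIF1 2 weeks and 0.466 (0.344 to 0.619) for WIF1 4 weeks. In the Gad1 set, which holds most amacrine Gria1, the level was 415, 445 and 407 CPM. That set made 39 of 224 amacrine nuclei in WIF1 2 weeks, 23 of 134 in WIF1 4 weeks and 230 of 463 in Control. The set thus made a smaller share of amacrine nuclei in the WIF1 libraries, while its own Gria1 level was close in all 3. The part of this make-up in the class ratio was not tested. Within the set Gria2 had 2966, 2061 and 976 CPM and Grik2 449, 154 and 1028 CPM.

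Amacrine Grik1 stood at 0.369 of Control in WIF1 2 weeks and 0.0846 in WIF1 4 weeks, and 5 nuclei held 74.5%, 80.0% and 50.5% of its UMIs. Gria4 in rods, at 8.18, 3.10 and 7.05 CPM, had a WIF1 4 weeks over Control ratio of 0.440 on 21 UMIs against 37. Grik1 in ON cone bipolar nuclei was 2.15 times Control in WIF1 2 weeks, in the few nuclei noted above. Müller Grik1 stood at 0.0503 and 0.161 of Control in the WIF1 libraries, resting on the few Control nuclei noted above. The WIF1 4 weeks value was 0.605 with doublets kept, which is short of 2-fold, and 0.0304 at clustering resolution 2. In Müller nuclei Gria2 was at 6.92, 49.1 and 59.1 CPM, and 5 UMIs stand behind the WIF1 2 weeks value.

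Over all kept nuclei, the sums of subunits with their highest level in amacrine nuclei were lower in the WIF1 libraries. In WIF1 2 weeks Grik2 stood at 0.364 of its Control level, Gria4 at 0.520 and Gria3 at 0.515. In WIF1 4 weeks the values of Grik2, Gria4 and Gria3 were 0.321, 0.388 and 0.272. Amacrine nuclei made 2.54%, 1.52% and 6.47% of kept nuclei in WIF1 2 weeks, WIF1 4 weeks and Control. In such sums fewer cells of a type and less RNA per cell cannot be told apart. Within amacrine nuclei, the same genes had ratios of 0.890 and 1.16 for Grik2, 1.05 and 1.03 for Gria4, and 1.39 and 1.18 for Gria3. These class ratios also mix groups whose shares differed, as the Gad1 set made a smaller share of amacrine nuclei in the WIF1 libraries. Within that set Grik2 was lower in both WIF1 libraries than in Control, as given above. The part of this make-up in the class ratios was not tested.

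The ATAC counts showed called start-site peaks for 6 of the 9 genes in all 3 libraries, namely Gria2, Gria4, Grik1, Grik2, Grik4 and Grik5. A start-site peak is any peak called within 1000 bp of a gene start in the files, and its level is given as CPM of all promoter counts of the class. Gria3 had such a peak in WIF1 2 weeks alone, and Gria1 and Grik3 in both WIF1 libraries. Control was the library with the fewest ATAC counts (37525307, against 90490537 in WIF1 2 weeks and 71304238 in WIF1 4 weeks). Peaks were called library by library, so the intervals compared differ slightly.

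The start-site peak of Grik1 had more counts in OFF than in ON cone bipolar nuclei. It lay at chr16:88289877-88290699 in WIF1 2 weeks, chr16:88289892-88290695 in WIF1 4 weeks and chr16:88289906-88290642 in Control, at the 5′ end of the gene. As CPM of all peak counts it had 36.9, 27.4 and 36.9 in OFF and 6.99, 3.46 and 5.55 in ON cone bipolar nuclei. The OFF over ON ratio was 5.28 (3.53 to 8.06), 7.92 (4.46 to 14.8) and 6.65 (3.92 to 11.8).

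Of all peaks in the 9 genes with at least 30 counts, 4 of 26, 5 of 20 and 4 of 16 were 2-fold apart between OFF and ON nuclei of WIF1 2 weeks, WIF1 4 weeks and Control, against 17.3%, 14.9% and 12.4% of all peaks. With at least 10 counts it was 17 of 57, 12 of 38 and 8 of 29, against 24.2%, 21.8% and 22.4%. At the minimum of 30 counts, the Grik1 start-site peak was the 1 higher in OFF nuclei in each library, and the others past 2-fold were lower. At the minimum of 10 counts, other peaks were also higher in OFF nuclei in each library. One peak inside Gria2, 89540 bp downstream of the start in both WIF1 libraries and 89554 bp in Control, had OFF over ON ratios of 0.903, 0.383 and 0.332, past 2-fold in WIF1 4 weeks and Control.

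**Figure D5:**
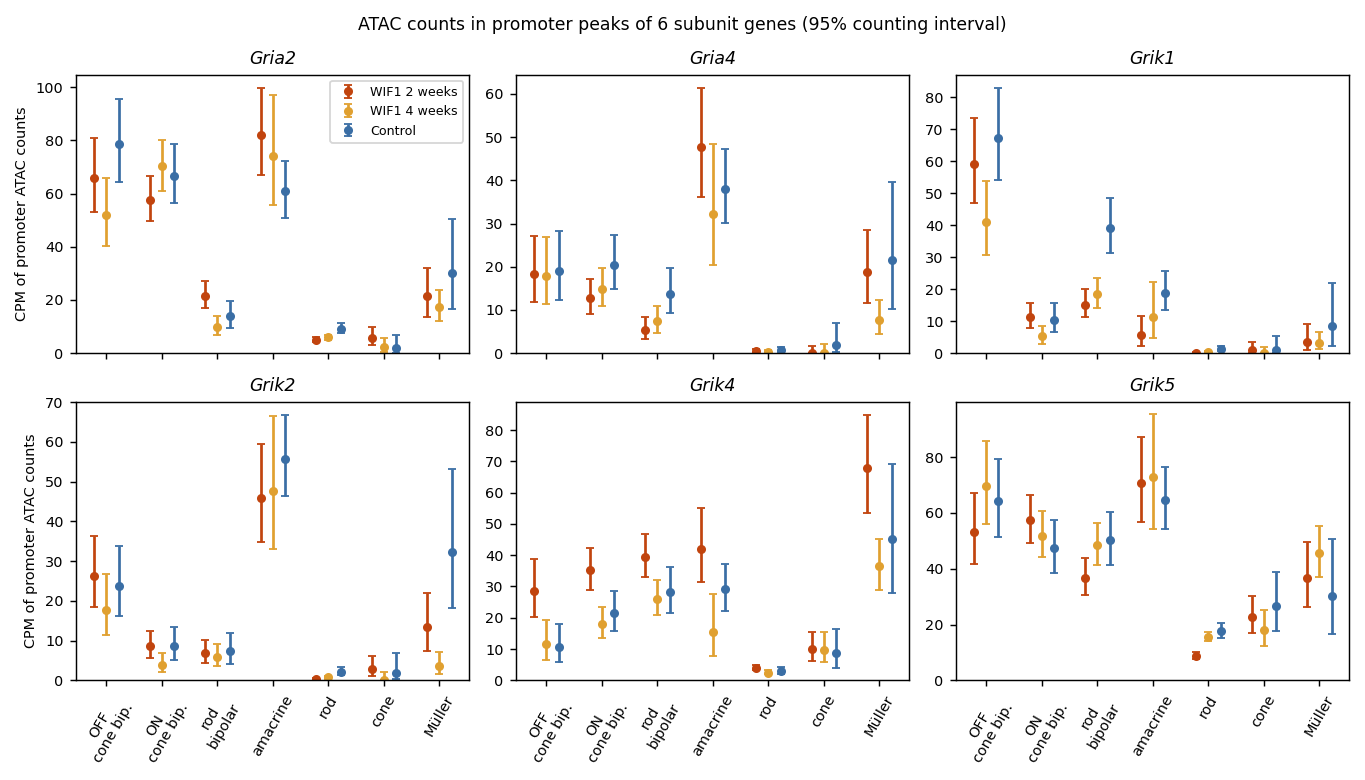
ATAC counts in start-site peaks as CPM of all promoter counts of a class (linear axis, 0 at the bottom), for the 6 subunits with such a peak in all 3 libraries; WIF1 2 weeks, WIF1 4 weeks and Control side by side, bars the 95% counting interval. The Grik1 window holds 1, 1 and 2 called peaks in the 3 libraries and that of Grik5 2, 2 and 1. Grik1 is highest in OFF cone bipolar nuclei and Gria4 and Grik2 in amacrine nuclei, while Grik5 is at 30.1 CPM or more in every class but rods and cones.

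Across classes, Gria4, Grik1, Grik2 and Grik4 had their highest start-site level in the class where their RNA was highest. At the Gria2 start, OFF cone bipolar nuclei had 65.7, 52.0 and 78.8 CPM of promoter counts, amacrine nuclei 82.2, 74.3 and 61.0, and rods 5.10, 5.89 and 9.24. Gria4 was at 47.6, 32.2 and 38.0 in amacrine nuclei and Grik2 at 45.9, 47.6 and 55.8. Grik4 was highest in Müller nuclei, at 67.8, 36.4 and 45.2. Rod bipolar nuclei had 21.6, 9.96 and 13.8 at the Gria2 start, above rods, although their Gria2 RNA was lower than that of rods.

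Between libraries, the Gria2 start site and its RNA were on the same side of Control in some classes and on opposite sides in others. For WIF1 2 weeks over Control, the start-site ratio was 0.834 in OFF cone bipolar nuclei, with an interval that holds 1, and 0.862 (0.690 to 1.08) in ON cone bipolar nuclei, against RNA ratios of 1.95 and 1.90. It was 1.57 (1.01 to 2.48) in rod bipolar nuclei, against an RNA ratio of 2.37 (1.13 to 5.16) on 21 and 13 UMIs, and 1.35 (1.03 to 1.76) in amacrine nuclei, against 2.13. In rods it was 0.551 (0.418 to 0.731), against 0.778. For WIF1 4 weeks over Control, it was 0.660 in OFF cone bipolar, 1.05 in ON cone bipolar, 0.722 in rod bipolar, 1.22 in amacrine and 0.638 in rod nuclei, where the RNA ratios of Gria2 lay between 1.13 and 1.29.

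The Grik1 window held 2 called peaks in Control and 1 in each WIF1 library, so its summed level was not compared between libraries. The peak at the start itself had 8.56, 11.1 and 13.9 CPM of all peak counts in rod bipolar nuclei (51, 63 and 48 counts), where Grik1 RNA stood at 259, 234 and 294 CPM.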

How the data were processed

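The deposited matrices hold raw counts per called barcode, with UMIs for genes and ATAC counts for peaks, per the file headers. Cell Ranger ARC 2.0.1 on mm10, Seurat 5.0.1 and Signac 1.12.0 are named in the submitters' processing notes, without their roles. The peaks that the authors deposited differ between libraries.

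Nuclei with at least 500 UMIs, 300 genes and at most 10% mitochondrial UMIs were kept. Doublets were scored against simulated ones and removed at 0.8% per 1000 barcodes (1072, 797 and 526 nuclei). Log-scaled counts of 2000 variable genes without the 9 subunits gave 30 principal components, 15 neighbours and Leiden clusters at resolution 1 (scanpy 1.11.5, leidenalg 0.10.2, Python 3.11.15). A cluster needed 3 enriched markers to be named. The cut of ON from OFF clusters and the splitting of 1 mixed cluster were set after seeing the data, and 77, 123 and 158 nuclei stayed unnamed. Among rod clusters, 1 was led by the immune genes Ighm, Igkc and Igha and another by genes that include the stress genes Edn2, Fgf2 and Cebpd.

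Counts were summed per class, with exact Poisson intervals for CPM and conditional binomial (Clopper-Pearson) intervals for ratios. A gene entered a comparison with at least 30 UMIs in the higher group and was called at 2-fold. For printed ratios, a group at 0 was set to 3 counts over the class. For 2-fold calls, shares of all genes and the alternative settings, every group under 3 counts was set to 3. No gene was tested, since nuclei of 1 library are not replicates. UMIs are counted molecules, while ATAC counts may hold fragments that are not independent, and intervals cover counting error only. The ratio script was tested on simulated counts. Gene spans and start regions came from RefSeq (GRCm38.p6). The 9 subunits are always described, and partner genes were named at 2-fold with at least 30 UMIs in an OFF over ON or library comparison. Adarb1 was named after its values were seen. The members and gene lists were chosen with earlier results of these data known. The spatial sections that the design also names were not analysed here.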

Additional observations from a re-analysis of the deposited data

How the results depend on the processing

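No paired analysis was possible because each group has 1 library, and for the same reason no replicate could be left out. Alternatives were a Leiden resolution of 2, nuclei of at least 1000 UMIs, doublets kept, median-of-ratios size factors, totals without mitochondrial and rod marker genes, and the 9 subunits allowed among the variable genes. The 3 subunits past 2-fold between OFF and ON nuclei stayed 3 in number under each of these in every library. The 5 subunit and class pairs past 2-fold between WIF1 4 weeks and WIF1 2 weeks (of 32, 5.63% of all pairs) became 8 of 37 with doublets kept (5.04%) and 2 of 28 at resolution 2 (4.42%), and the 5 of 30 between WIF1 2 weeks and Control became 7 of 37 with doublets kept (5.80%). With a minimum of 10 UMIs, 13 of 43 pairs passed for WIF1 2 weeks over Control (11.1% of all pairs), 7 of 43 for WIF1 4 weeks over Control (5.65%) and 12 of 42 for WIF1 4 weeks over WIF1 2 weeks (10.9%). At 1.5-fold, 12 of 30 passed for WIF1 2 weeks over Control (22.5%) and 13 of 32 for WIF1 4 weeks over WIF1 2 weeks (21.0%). Grik1 led the kainate genes in 3 of 21 class sums by CPM per kb, and in 7 without the division by span, a ranking not used here. With a minimum of 10 counts, 17 of 57, 12 of 38 and 8 of 29 peaks were 2-fold apart between OFF and ON nuclei (24.2%, 21.8% and 22.4% of all peaks). No subunit ratio that was past 2-fold in the main setting changed direction. Changes of direction among ratios short of 2-fold were not counted. Of single subunit ratios, 2 of 106 moved beyond their interval at resolution 2, 1 of 109 with at least 1000 UMIs, 6 of 112 with doublets kept and 2 of 112 with median-of-ratios factors. The Müller Grik1 ratio of WIF1 4 weeks over Control ranged between 0.0304 and 0.605. The WIF1 2 weeks over Control ratio of Gria2 ranged between 1.88 and 1.98 in OFF cone bipolar, 1.80 and 1.91 in ON cone bipolar, and 2.05 and 2.15 in amacrine nuclei. Apart from the minimum counts, whose lower limit admits more genes, the cause was not tested. Depth limits the low genes, as WIF1 2 weeks has a median of 691 UMIs per rod nucleus, against 1146 in Control.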
